A study of Mus musculus with 2 samples.

Results

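Cytosolic ribosomal protein genes encode the protein part of the ribosome that translates nuclear transcripts. They were chosen by symbol: every gene named Rpl or Rps followed by a digit, with Rpsa, Rplp0, Rplp1 and Rplp2, leaving out symbols with -ps and the Rps6k kinases. The rule found 86 genes among the 31053 in the files. Of these, 43 encode large subunit proteins, 31 small subunit proteins and 3 the P stalk, the arm of the large subunit that recruits the translation GTPases. The other 9 are paralogs or genes that match by name (Rpl22l1, Rps27l, Rps27rt, Rpl10l, Rpl36al, Rpl39l, Rpl3l, Rpl7l1 and Rps19bp1, whose product binds Rps19 and is no ribosome subunit). The other 77 are called core genes below. All 86 had at least 1 UMI (unique molecular identifier, a tag that counts a captured transcript once) in the cells kept, and all 86 are annotated in GENCODE vM21.

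The cells came from the ischemic brain of Foxp3Egfp mice, whose Foxp3 gene carries a green fluorescent reporter. The mice were 6 to 8 weeks old and flushed with PBS, and the sort kept CD45+CD11b+CD3-F4/80+ cells for single-cell RNA sequencing with 10x Genomics 3' v3 chemistry. There was 1 group with 2 libraries, replicates 1 and 2, and no uninjured control, so every comparison is between kinds of cell within the same brains. Time after stroke and the number of mice are not given in the sources used here, barcoded cDNA of stroke mice was pooled, and the labels do not say that the libraries are separate animals, so p-values measure only the spread between these libraries, which may be technical.

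Replicates 1 and 2 held 101893367 and 62850768 UMIs and gave 13624 and 7409 cells after filters and doublet removal. The filtered libraries shared 31 cell barcodes. Clusters were cut without the counts of ribosomal protein genes, and classes were named from marker genes as X-like. The labels call the cells macrophages. Microglia-like cells (6134 and 4792) were more numerous than macrophage-like cells (4864 and 583), and neutrophil-like, dendritic cell-like and T/NK-like cells (T or NK cells by their markers) were also present, the last although the sort was for CD3-negative cells. All 15 microglia markers reached 50 counts per 1000000 UMIs (CPM) in microglia-like cells, and all 15 macrophage markers did so in macrophage-like cells, in both libraries.

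Each ribosome needs about equal numbers of its core proteins, and their genes are among the most strongly transcribed of any cell. Their transcripts start with a tract of C and T bases, the terminal oligopyrimidine or TOP motif, through which the kinase mTORC1 and the RNA-binding protein Larp1 adjust their translation. Translation factors such as Eef1a1 carry the same tract. In brain phagocytes, growth, activation and migration all draw on new protein, while some paralogs replace a core protein in part of the ribosomes of particular tissues.

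The start regions of 8 genes that recur in the results are shown, from 30 bases before to 30 bases from the annotated start, in RefSeq's GRCm38.p6 tables, which held 66 of the 86 genes. Capitals mark the longest run of C and T, or the first of equally long runs, as in Rps27l and Rpl36al. Rps27 and its paralog Rps27l are shown as the pair whose balance differed between classes, Rpl36al and Rpl22l1 as other paralogs that differed, Rpsa, Rps2 and Rpl41 as core genes that recur among the largest differences, and Rpl12 as the core gene with the largest decrease in the neutrophil-like cluster 13. Their positions are Rps27 chr3:90213619-90213678 (- strand), Rps27l chr9:66946056-66946115 (+ strand), Rpl36al chr12:69184038-69184097 (- strand), Rpl22l1 chr3:28805478-28805537 (+ strand), Rpsa chr9:120127736-120127795 (+ strand), Rps2 chr17:24720033-24720092 (+ strand), Rpl41 chr10:128549139-128549198 (- strand) and Rpl12 chr2:32961682-32961741 (+ strand).
Rps27: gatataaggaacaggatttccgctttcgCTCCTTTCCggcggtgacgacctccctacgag
Rps27l: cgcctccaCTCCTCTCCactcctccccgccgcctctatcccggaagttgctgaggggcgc
Rpl36al: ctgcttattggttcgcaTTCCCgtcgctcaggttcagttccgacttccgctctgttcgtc
Rpl22l1: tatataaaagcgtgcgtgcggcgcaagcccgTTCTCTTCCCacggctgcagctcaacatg
Rpsa: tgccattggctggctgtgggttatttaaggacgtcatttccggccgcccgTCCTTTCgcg
Rps2: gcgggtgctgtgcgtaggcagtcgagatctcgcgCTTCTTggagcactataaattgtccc
Rpl41: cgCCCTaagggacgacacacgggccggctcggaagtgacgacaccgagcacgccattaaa
Rpl12: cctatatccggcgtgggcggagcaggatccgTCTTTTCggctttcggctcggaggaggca
A run of 10 or more C and T on the sense strand lay in this 60-base window in 21 of 66 ribosomal protein genes (31.8%), against 10.7% of 27025 genes in the table. The median longest run was 7 against 5 bases. The letters CTTTCC, one form of the tract and able to overlap those runs, stood on the sense strand in 11 of 66 (16.7%), against 2.85% of all. The letters CCGGAAG, a core bound by ETS family factors, stood on either strand of the 300-base promoter (250 before to 50 after the start) in 25 of 66 (37.9%), against 9.12% of all. Rpl41, with a longest run of 4 bases, and Rpl22l1, with one of 10, both belong to the genes with the largest differences between microglia-like clusters. A match is a description of the letters in these windows, and the first base that these cells transcribe was not measured.

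Ribosomal protein genes gave 17.2% of all UMIs in the cells of replicate 1 and 17.7% in replicate 2. The 10 highest genes held 24.7% of these UMIs, 65 genes reached 1000 CPM and 79 reached 200 CPM, with CPM averaged over both libraries. Rps29, a zinc-binding small subunit protein, was highest at 8611 and 7829.7 CPM in replicates 1 and 2. Rps24 followed at 4731 and 4621 CPM and Rpl41, which encodes the shortest ribosomal protein, at 4877 and 3547 CPM. Rpl41 differed more between the libraries than Rps24 did. The 9 paralogs and name matches together held 1.04% of the members' UMIs. Rpl10l had 3 and 9 UMIs, Rpl3l (the striated muscle form of Rpl3) 66 and 73, and Rpl39l 419 and 279, so their levels are set by few molecules. Another 32 genes with at least 85% identity over at least 50% of their transcript to a ribosomal protein transcript held 140006 UMIs, which equals 0.613% of the members' UMIs. Reads shared with such copies, as for Rpl41, Rpl10, Rpl27 and Rpl35, and between Rps27 and its retrogene Rps27rt, leave those levels uncertain. Counts are per 3' tag, so a comparison of levels between genes is of tags and not per length.

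The share of UMIs from ribosomal protein genes was higher in T/NK-like and dendritic cell-like cells than in the microglia-, macrophage- and monocyte-like classes. It was 25.4% and 28.6% in T/NK-like cells of replicates 1 and 2, and 23.3% and 24.0% in dendritic cell-like cells. The unnamed cluster 12, described further on, had 24.8% and 26.4%, above the dendritic cell-like values. Both named classes lay above microglia-like cells (18.6% and 17.4%), macrophage-like cells (15.8% and 16.2%) and monocyte-like cells (18.5% and 15.8%) in each library. The shares of monocyte-like and microglia-like cells overlapped, and those of macrophage-like cells were the lowest of these classes except for 1 monocyte-like library. Barcodes under 100 UMIs, taken as free RNA, had 18.9% and 17.4%, close to the microglia-like values. With 2 libraries a class, an exact permutation test of a share could not go below p = 0.33, so none was run. The ratio of small to large subunit UMIs was 0.810 and 0.808 in microglia-like and 0.812 and 0.807 in cycling-like cells, which overlapped. It was 0.820 and 0.813 in macrophage-like, 0.817 and 0.836 in neutrophil-like, 0.839 and 0.844 in dendritic cell-like, 0.848 and 0.856 in monocyte-like and 0.861 and 0.894 in T/NK-like cells. The libraries of these 5 classes all lay above both microglia-like libraries, by little in macrophage-like cells. In sums over cells, fewer transcripts per cell and fewer cells with many transcripts cannot be told apart.

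**Figure D1:**
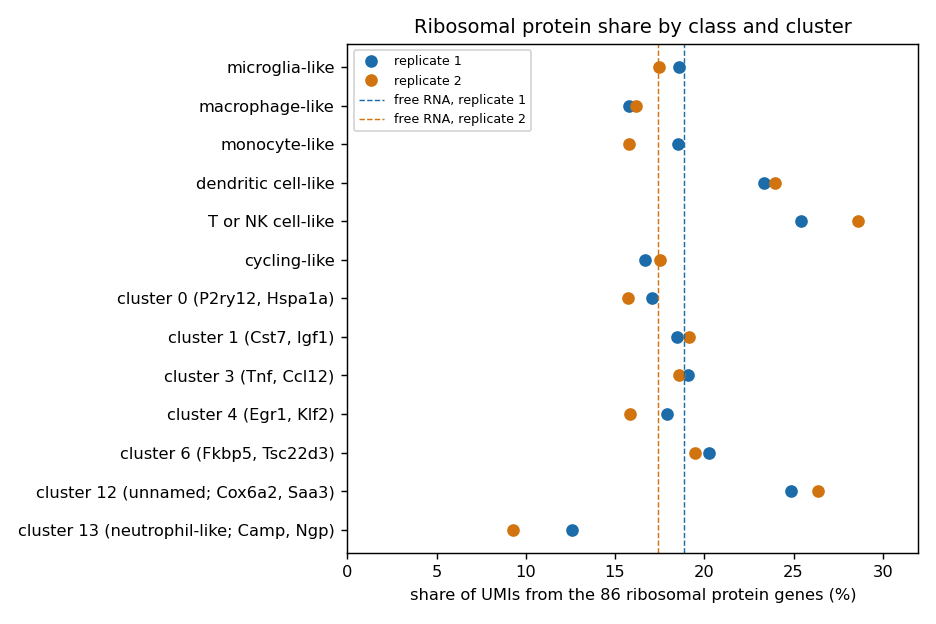
Share of UMIs from the 86 ribosomal protein genes (x axis, percent), 1 point per library, with dashed lines for free RNA. The y axis holds the classes except the neutrophil-like one, and the clusters compared in the text. T/NK-like cells (25.4% and 28.6%), cluster 12 (24.8% and 26.4%) and dendritic cell-like cells (23.3% and 24.0%) lie right of both lines, and cluster 13 (12.6% and 9.3%) lies left of them.

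Differences were tested on UMI sums per library and class or cluster with edgeR's quasi-likelihood test, and passing means an adjusted p (Benjamini-Hochberg over all genes tested) under 0.05. Log2 fold changes are on the TMM scale, which sets the bulk of genes equal between sums, while CPM are shares of all UMIs. With library sizes in place of TMM, the median over all genes moved from 0.05 to -0.30 for macrophage-like against microglia-like cells, from -0.14 to -0.45 for monocyte-like cells, from 0.01 to -0.21 for dendritic cell-like cells, from 0.03 to 0.30 for cluster 0 and from 0.00 to -0.22 for cluster 1. The members' median is therefore also given relative to that of all genes. A change of scale shifts all genes of a comparison by nearly the same amount, so this relative median hardly changes by construction. Its likeness on both scales is therefore no separate check. Of the 86 genes, 85 passed the filter on low counts and were tested, and Rpl10l did not. Some counts under other settings stand below without the share of all genes called there. A change in such a count cannot be told apart from a general change in calls.

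Among microglia-like cells, cluster 0, led by Hspa1b, Hspa1a and the homeostatic receptor gene P2ry12 (1407 and 2149 cells), had the lowest ribosomal protein expression. Of 85 genes tested, 80 were lower than the mean of the 4 other microglia-like clusters and 0 higher, against 11.1% of 9994 genes lower and 12.2% higher. All 43 large subunit genes, all 31 small subunit genes and 2 of 3 P stalk genes were lower, with fold changes of the core genes from -0.71 to -0.23. The members' median was -0.45, and relative to all genes it was -0.48 on the TMM scale and -0.48 with library sizes. Rpsa, a small subunit protein also known as the laminin receptor, stood at 1667 and 1672 CPM in cluster 0 and at 1700.4 to 2646 CPM over the other clusters and both libraries. The ranges did not overlap, and the log2 fold change was -0.69 (SE 0.09, adjusted p = 4.07e-05). Rps2, which lines the messenger entry of the small subunit, was at 1584 and 1572 against 1585 to 2796 CPM, just below the range of the others, with a log2 fold change of -0.71 (SE 0.09, adjusted p = 2.27e-05). Rpl22l1, the paralog of Rpl22, was at 506 and 373 against 459 to 819.6 CPM; each library was below the other clusters of its own replicate, and the log2 fold change was -0.85 (SE 0.10, adjusted p = 1.47e-05). Rpl41 was at 3327 and 2585 against 2504 to 5232 CPM, overlapping, with a log2 fold change of -0.63 (SE 0.09, adjusted p = 5.02e-05). In the P stalk, Rplp0 (-0.51) and Rplp2 (-0.41) were lower, while Rplp1 had -0.23 (SE 0.10, adjusted p = 0.0961), the smallest difference of the well measured genes. Rps6, the substrate of the S6 kinases, had -0.37 (adjusted p = 0.0032).

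With library sizes in place of TMM, 27 members were lower in cluster 0 and 1 higher, with a median of -0.18, while 41.3% of all genes were higher and 4.2% lower. Cells of cluster 0 were shallow (1695 and 3899 median UMIs, against 5818 and 11168.5 in cluster 1), and in cells of 2000 to 10000 UMIs alone 33 members were lower with a median of -0.39. Microglia markers summed to 87196 and 90016.5 CPM in cluster 0, the highest of the 5 clusters, and macrophage markers to 1980.3 and 1214 CPM. The part of depth and of these markers in the result was not tested.

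Cluster 4, led by the immediate early genes Egr1, Klf2, Atf3 and Jun, was lower to a smaller extent. Here 38 of 85 members were lower and 0 higher, against 6.16% of all genes lower and 5.95% higher: 20 of 43 large subunit, 13 of 31 small subunit and 2 of 3 P stalk genes. Their median was -0.25, and relative to all genes -0.26 on the TMM scale and -0.26 with library sizes. Rps2 stood at 1635 and 1585 CPM against 1572 to 2796 CPM in the other clusters, above cluster 0 and below the 3 others in both libraries, with a log2 fold change of -0.51 (SE 0.09, adjusted p = 0.001). Rpl41 had -0.49 (adjusted p = 0.00111) and Rps27l -0.45 (adjusted p = 0.00787), both with CPM that overlapped the other clusters. Rps27 and Rplp1 differed least, at 0.01 (adjusted p = 0.971) and -0.01 (adjusted p = 0.974). The count rests on the pairing of sums by library: without the replicate block 3 members were lower, in cells of 2000 to 10000 UMIs 0, and with library sizes 10, where 11.2% of all genes were higher and 4.17% lower. Median depth in cluster 4 was 2127 and 4745.5 UMIs.

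Cluster 1, led by Cst7, Ch25h, Cd72 and Igf1 (1790 and 554 cells), lay on the other side. Here 71 of 85 members were higher and 0 lower, against 25% of all genes higher and 21% lower: 39 of 43 large subunit, 24 of 31 small subunit and 2 of 3 P stalk genes and 6 of 8 paralogs. The median of the 85 genes was 0.31, and relative to all genes 0.31 on the TMM scale and 0.31 with library sizes. Rps27l, a paralog of Rps27 and known as a target of p53, stood at 427 and 369 CPM against 184 to 258 CPM in the other clusters. The values did not overlap and the log2 fold change was 1.13 (SE 0.09, adjusted p = 2.16e-08). Rps27 itself did not follow, at -0.13 (adjusted p = 0.232). Rpl41 stood at 5232 and 4534 against 2504 to 4288 CPM and Rps2 at 2538 and 2796 against 1572 to 2339 CPM. Neither overlapped the other clusters, and the log2 fold changes were 0.78 (SE 0.08, adjusted p = 2.23e-07) and 0.73 (SE 0.08, adjusted p = 7.2e-07). Rplp0 (0.39, adjusted p = 0.000481) and Rplp2 (0.42, adjusted p = 0.000204) were higher and Rplp1 had 0.10 (adjusted p = 0.384). Rps4x and Rpl30 differed least, at 0.06 (adjusted p = 0.581) and 0.06 (adjusted p = 0.55).

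With library sizes, 20 members were higher in cluster 1 and 2 lower, with a median of 0.09, while 14.9% of all genes were higher and 37% lower. In cells of 2000 to 10000 UMIs 24 were higher. The mean share of UMIs from ribosomal protein genes over both libraries was 18.8% in cluster 1, like the 18.8% of cluster 3. It was 19.9% in cluster 6, 16.4% in cluster 0 and 16.9% in cluster 4. Each microglia-like cluster is set against the mean of the others, so low values in clusters 0 and 4 raise the fold changes of cluster 1. These cluster comparisons are therefore not independent. Cluster 1 also had the most macrophage marker signal of the microglia-like clusters (10676 and 5234 CPM, with 11 and 9 of 15 markers at 50 CPM or more) and microglia markers at 35504 and 42649 CPM. Their part in the result was not tested.

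Cluster 6, led by Pik3ip1 and the glucocorticoid-inducible genes Fkbp5 and Tsc22d3 (756 and 458 cells), also had more ribosomal protein transcripts. Here 63 of 85 members were higher and 1 lower, against 10.1% of all genes higher and 7.3% lower: 33 of 43 large subunit, 27 of 31 small subunit and 1 of 3 P stalk genes. The members' median was 0.31, and relative to all genes 0.33 on the TMM scale and 0.32 with library sizes. Rps18, a small subunit protein, stood at 2960.1 and 2875 CPM against 1970.5 to 2721 CPM in the other clusters. The values did not overlap and the log2 fold change was 0.44 (SE 0.08, adjusted p = 0.00111). Rpl22l1 stood at 819.6 and 662 against 373 to 777 CPM, overlapping, with 0.52 (SE 0.09, adjusted p = 0.000526). Rps27 (0.43, adjusted p = 0.00103) and Rps27rt (0.47, adjusted p = 0.0072) were higher. The gene that was lower is Rpl7l1, a nucleolar relative of Rpl7 in ribosome assembly, at 33.8 and 38.1 against 45.5 to 71.9 CPM, with -0.47 (SE 0.13, adjusted p = 0.0133). Rpl23a differed least, at 0.09 (adjusted p = 0.555). Without the replicate block 26 members were higher, in cells of 2000 to 10000 UMIs 13, and with library sizes 17 higher and 3 lower, where 5.75% of all genes were higher and 14.8% lower. The mitochondrial share was the highest of the 5 clusters (2.83% and 2.64% of UMIs), and its part in the result was not tested.

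Cluster 3, led by Tnf, Ccl12, Il1a and Cxcl10, had 0 members higher and 0 lower by edgeR, against 0.981% of all genes higher and 0% lower. At an unadjusted p under 0.05 there was 1 member, and DESeq2 also called 0. Their median was 0.09. Rps6, at 554 and 693 CPM, and Rpl10, at 1478 and 1826 CPM, differed least and overlapped the other clusters (539.6 to 739.7 and 1459 to 1967 CPM).

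Cluster 12 (200 and 290 cells) carried more leading markers of another class than of its own and stayed unnamed. Its leading genes were Cox6a2, Saa3, Cst7 and Aif1, followed by Gm2000, which resembles Rpl35 and was not used for clustering. This comparison and that of cluster 13 were chosen after the data were seen. Both clusters stand near the ends of the range of ribosomal protein shares, at means of 25.6% and 10.9%. Their counts and p-values therefore describe that difference and are no separate support for it. In cluster 12, 84 of 85 members were higher than in the mean of the 5 microglia-like clusters and 0 lower, against 13.5% of 11035 genes higher and 11.6% lower. All 77 core genes were higher, by 0.45 to 1.16, and the median was 0.93. Relative to all genes the median was 1.06 on the TMM scale and 1.05 with library sizes. Rpl41 stood at 6449 and 5527 CPM against 2504 to 5232 CPM in the microglia-like clusters, Rps2 at 3100.0 and 3371 against 1572 to 2796 CPM and Rps26, which contacts the messenger at the exit of the small subunit, at 2916 and 3010.5 against 1470.5 to 2289.8 CPM. None of them overlapped, and the log2 fold changes were 1.16 (SE 0.10, adjusted p = 7.89e-11), 1.11 (SE 0.11, adjusted p = 1.71e-09) and 1.08 (SE 0.11, adjusted p = 1.1e-09). Rps27l had 1.31 (SE 0.12, adjusted p = 6.33e-10), at 479 and 418 CPM, where 1 library lay inside the range of the microglia-like clusters. The P stalk genes Rplp0, Rplp1 and Rplp2 were higher by 1.05, 0.99 and 0.96, and Rps6 by 1.04. Rpl23a (0.45, adjusted p = 0.00883) and Rps9 (0.69, adjusted p = 7.61e-06) differed least.

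In cells of 2000 to 10000 UMIs, 83 members were higher in cluster 12, with a median of 0.90, while 13.2% of all genes were higher and 11.2% lower. With library sizes 77 were higher and the median was 0.51 in place of 0.93, while 6.05% of all genes were higher and 25.7% lower. Cluster 12 cells had 1929.5 and 2660.5 median UMIs. Microglia markers summed to 53828 and 53449 CPM in them, inside the range of the microglia-like clusters, and macrophage markers to 5953 and 5556 CPM. The part of depth in the result was not tested.

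Cluster 13 (99 and 357 cells) was led by the granule genes Camp, Ngp, Lcn2 and S100a8 and had all 14 neutrophil markers at 50 CPM or more, which summed to 193269 and 195271 CPM. Its ribosomal protein share was 12.6% and 9.3%, the lowest of the clusters compared here. Against the microglia-like clusters 46 of 85 members were lower and 2 higher, with 14.1% of all genes lower and 17.3% higher: 28 of 43 large subunit, 16 of 31 small subunit and 1 of 3 P stalk genes. The median of the 85 genes was -0.36, and relative to all genes -0.21 on the TMM scale and -0.20 with library sizes. Rpl12, at the base of the P stalk, stood at 367 and 363 CPM against 805 to 1045 CPM and had -0.91 (SE 0.15, adjusted p = 1.25e-05). Rpl10a, of the L1 stalk that moves transfer RNA out of the ribosome, stood at 1140.2 and 658 against 1679.9 to 2478 CPM and had -0.83 (SE 0.14, adjusted p = 1.59e-05). Rpl3, beside the peptidyl transferase centre, stood at 850.3 and 554 against 1323 to 2094 CPM and had -0.83 (SE 0.15, adjusted p = 3.12e-05). These large subunit genes did not overlap the microglia-like clusters. Rpl13a had -0.69 (adjusted p = 0.0103) and the stalk gene Rplp1 -0.63 (adjusted p = 0.000276). Rps27l was higher, at 0.71 (adjusted p = 6.14e-05), with CPM inside the range of the microglia-like clusters (292 and 294). Rpl41 was among the genes that differed least, at 0.06 (adjusted p = 0.773). With library sizes 80 members were lower and 2 higher, with a median of -0.76, while 10.6% of all genes were higher and 31.6% lower. Median depth was 1975 and 2201 UMIs, and the depth alternative gave no value for this cluster.

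The neutrophil-like class as a whole, clusters 8 and 13 together (698 and 571 cells), gave other counts. By edgeR's quasi-likelihood test 1 of 85 members was higher than in microglia-like cells and 0 lower, with 3.89% of all genes higher and 0.194% lower. The gene called was the paralog Rpl3l, named after its values were seen, which had 6 and 28 UMIs. An unadjusted p under 0.05 was found for 2 members, and DESeq2 called 1 higher and 0 lower. Of the 77 core genes 73 had a log2 fold change below 0, the median of the 85 genes was -0.15, and relative to all genes it was -0.06 on the TMM scale and -0.06 with library sizes. Rpl21, the core gene with the lowest value, stood at 2106 and 1951 CPM against 2642 and 2969 CPM in microglia-like cells and had -0.39 (SE 0.17, adjusted p = 0.253). Shares of UMIs were 17.2% and 13.9%, both below the microglia-like ones. Microglia marker sums of this class are not reported here, and the part of microglia transcripts in the result was not tested. At Leiden 1.2, where the class held 61 and 332 cells, 23 members were lower and 2 higher, with a median of -0.47. These cell numbers are near those of cluster 13 alone, so this may largely repeat that cluster's result. The share of all genes called in that setting is not given here.

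Cycling-like cells (564 and 204) differed from microglia-like cells in few ribosomal protein genes. Of 85 members 4 were higher and 2 lower, with 15.2% of all genes higher and 10.1% lower. These were 2 of 31 small subunit genes and 2 of 8 paralogs or name matches higher, and 1 of 31 and 1 of 8 lower. Rps27l stood at 587 and 530.0 CPM against 316 and 234 CPM in microglia-like cells and had 1.09 (SE 0.18, adjusted p = 0.000866). Its partner Rps27 stood at 2035 and 2113 against 3305 and 3056 CPM and had -0.56 (SE 0.16, adjusted p = 0.0226). Neither gene overlapped between the classes. Rps15, a core gene of the head of the small subunit, stood at 528 and 484 against 360.0 and 309 CPM and had 0.66 (SE 0.16, adjusted p = 0.0106), also without overlap. Rps27rt had -0.66 (adjusted p = 0.0198) and Rps19bp1 0.63 (adjusted p = 0.0135). The median of the 85 genes was 0.003 and turned to -0.06 with library sizes. In cells of 2000 to 10000 UMIs 1 member was higher and 0 lower. The comparisons of neutrophil-like and cycling-like cells were added after the data were seen.

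**Figure D2:**
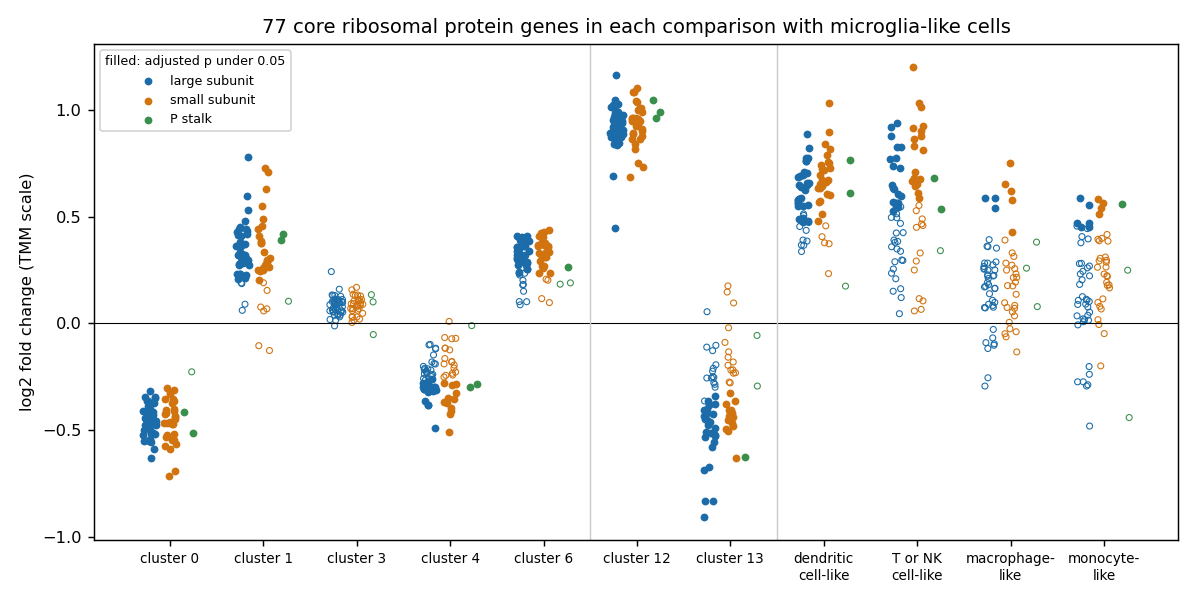
Log2 fold change (y axis, TMM scale) of the 77 core genes, 1 point per gene, filled where the adjusted p is under 0.05. The x axis holds the comparisons with microglia-like cells, except those of the neutrophil-like and cycling-like classes, which are not shown. Points of clusters 0 and 12 form tight bands (from -0.71 to -0.23 and from 0.45 to 1.16) on opposite sides of 0, while macrophage-like and monocyte-like points lie on both sides.

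Dendritic cell-like cells (272 and 223), led by the MHC class II genes H2-Eb1, H2-Aa and H2-Ab1, had 62 of 85 members higher than microglia-like cells and 0 lower, against 12.4% of 9793 genes higher and 8.25% lower. Higher were 31 of 43 large subunit, 26 of 31 small subunit and 2 of 3 P stalk genes. The members' median was 0.61, and relative to all genes 0.60 on the TMM scale and 0.61 with library sizes. Rpsa stood at 3518 and 4154 CPM against 2215 and 2102 CPM in microglia-like cells. Rps19, needed to assemble the small subunit and mutated in Diamond-Blackfan anaemia, stood at 4283 and 4504 against 2918.5 and 2547 CPM, and Rpl14 at 1253 and 1395 against 854 and 805 CPM. All 3 were higher in both libraries without overlap, by 1.03 (SE 0.20, adjusted p = 0.00398), 0.90 (SE 0.18, adjusted p = 0.00486) and 0.89 (SE 0.17, adjusted p = 0.0045). Rplp1 and Rps29 differed least, at 0.18 (adjusted p = 0.548) and 0.23 (adjusted p = 0.297), and overlapped microglia-like cells. Without the replicate block 36 members were higher, with library sizes 20, in cells of 2000 to 10000 UMIs 5, and with free RNA subtracted 41. With library sizes 7.34% of all genes were higher and 12.5% lower. Of the 13 dendritic cell markers, 3 and 5 reached 50 CPM, while microglia markers still summed to 24616 and 18364 CPM, and their part in the result was not tested.

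T/NK-like cells (133 and 97), with Nkg7, Gzma, Trbc2 and Cd3g in the lead, had 41 of 85 members higher than microglia-like cells and 0 lower, against 7.32% of all genes higher and 6.85% lower. Higher were 19 of 43 large subunit, 18 of 31 small subunit and 2 of 3 P stalk genes. Their median was 0.54, and relative to all genes 0.58 on the TMM scale and 0.58 with library sizes. Rps27, a zinc finger protein of the small subunit, stood at 6926 and 7963 CPM against 3305 and 3056 CPM in microglia-like cells. The libraries did not overlap, and the log2 fold change was 1.2 (SE 0.16, adjusted p = 0.00105), the largest of any core gene here. Its paralog Rps27l, at 222 and 228 against 316 and 234 CPM, had -0.31 (adjusted p = 0.31). Rpsa stood at 3652 and 5388 against 2215 and 2102 CPM, with 1.03 (SE 0.20, adjusted p = 0.00628), and Rps15a at 5631 and 6885 against 3209 and 2925 CPM, with 1.01 (SE 0.18, adjusted p = 0.00388). Rps27rt, whose reads cannot be told apart with certainty from those of Rps27, had 1.02 (adjusted p = 0.00749). Rpl10 and Rps29 differed least, at 0.05 (adjusted p = 0.882) and 0.06 (adjusted p = 0.843). Without the replicate block 25 members were higher, under the stricter cell filter 0 and in cells of 2000 to 10000 UMIs 1, where the median was 0.57. The share of all genes called in those settings is not given here, so a general loss of calls cannot be told apart. Microglia markers summed to 30600.4 and 15190.2 CPM in this class beside 7921 and 15199 CPM of T/NK markers, and their part in the result was not tested.

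Macrophage-like cells (4864 and 583) differed from microglia-like cells in single ribosomal protein genes. Of 85 members 12 were higher and 0 lower, against 25% of all genes higher and 20.7% lower, so the members' share of higher calls was below that of all genes. Higher were 3 of 43 large subunit, 5 of 31 small subunit, 0 of 3 P stalk genes and 4 of 8 paralogs or name matches. The median of the 85 genes was 0.21 with TMM and -0.12 with library sizes, so its direction depends on the scale, and relative to all genes it was 0.16 on the TMM scale and 0.17 with library sizes. Rps27l stood at 525 and 553 CPM against 316 and 234 CPM in microglia-like cells. Both macrophage-like libraries were above both microglia-like ones, and the log2 fold change was 1.32 (SE 0.18, adjusted p = 9.37e-05). Rps2 stood at 2717 and 2899 against 2175 and 2047 CPM, with 0.75 (SE 0.18, adjusted p = 0.00497). Rpl36al, the paralog of Rpl36a, stood at 653 and 822 against 578 and 537 CPM, with 0.73 (SE 0.17, adjusted p = 0.00438). Rps19bp1 stood at 56.5 and 60.0 against 42.6 and 42.4 CPM, with 0.80 (SE 0.16, adjusted p = 0.00137). All 4 were higher on both the CPM and the TMM scale. Rps21 differed least on the TMM scale, at 0.01 (adjusted p = 0.985), although its CPM was lower in macrophage-like cells (1727 and 1809.7 against 2144 and 2333). With library sizes 3 members were higher and 8 lower, while 12.7% of all genes were higher and 34.1% lower. In cells of 2000 to 10000 UMIs 3 members were higher and 1 lower, and under the stricter cell filter 7 were higher.

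Monocyte-like cells (362 and 423), marked by Plac8, Chil3 and Ly6c2, had 14 of 85 members higher than microglia-like cells and 0 lower, against 18.5% of all genes higher and 20.1% lower, a share of higher calls near that of all genes. Higher were 6 of 43 large subunit, 4 of 31 small subunit and 1 of 3 P stalk genes and 3 of 8 paralogs. The members' median was 0.22 with TMM and -0.07 with library sizes, so its direction too depends on the scale, and relative to all genes 0.35 on the TMM scale and 0.38 with library sizes. Rpl36al stood at 845 and 922 CPM against 578 and 537 CPM in microglia-like cells and had 0.96 (SE 0.18, adjusted p = 0.00118). Rpl8 stood at 1982 and 2041 against 1620.4 and 1645 CPM and had 0.59 (SE 0.17, adjusted p = 0.0171). Rps9 stood at 3870.3 and 3455 against 3003 and 2972 CPM and had 0.58 (SE 0.15, adjusted p = 0.00867). The libraries of these genes did not overlap. Rps27l had 0.65 (adjusted p = 0.0124), and Rps29 (0.00, adjusted p = 0.988) and Rpl14 (-0.01, adjusted p = 0.985) differed least. The count of higher members was 8 without the replicate block, 3 under the stricter cell filter, 2 in cells of 2000 to 10000 UMIs and 25 by DESeq2. With library sizes it was 2, with 10 lower, while 11.9% of all genes were higher and 32.6% lower.

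Between monocyte-like and macrophage-like cells few members differed. Of 85 members 2 were higher in monocyte-like cells and 7 lower, against 9.32% of all genes higher and 12.3% lower, so both shares were below those of all genes. The median was 0.02. The 2 higher genes were Rps9, at 3870.3 and 3455 against 2005 and 2306 CPM with 0.72 (SE 0.15, adjusted p = 0.00602), and Rps27, at 4165 and 3420.1 against 2271 and 2548 CPM with 0.60 (SE 0.16, adjusted p = 0.0182). Lower were Rps19bp1 (-0.83, adjusted p = 0.00723), Rps2 (-0.73, adjusted p = 0.0144), Rpl7l1 (-0.68, adjusted p = 0.0274) and Rps27l (-0.67, adjusted p = 0.0193), among others, and these 4 did not overlap in CPM. So Rps27 and Rps27l differed in opposite directions between these classes. Rps25 and Rps18 differed least, at 0.00 (adjusted p = 0.999) and 0.01 (adjusted p = 0.99). Without the replicate block 3 members were lower, in cells of 2000 to 10000 UMIs 1, and under the stricter cell filter 0.

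The balance between genes of the ribosome was tested by setting each sum's size to its own ribosomal protein UMIs, so that a value shows a gene against the members as a group. On this scale 14 of 85 members passed between macrophage-like and microglia-like cells (10 higher, 4 lower), against 41.2% of all genes in either direction. Between monocyte-like and microglia-like cells 19 passed (9 higher, 10 lower), against 39.5%, and between T/NK-like and microglia-like cells 17 passed (7 higher, 10 lower), against 28.9%. The members' shares were below those of all genes in each comparison, on a scale that holds their sum constant. All 3 comparisons share the microglia-like sums. In macrophage-like cells Rps27l (1.15, adjusted p = 0.000328), Rps19bp1 (0.62, adjusted p = 0.00854), Rps2 (0.58, adjusted p = 0.00231) and Rpl36al (0.57, adjusted p = 0.011) gained, and the large subunit genes Rpl21 (-0.43, adjusted p = 0.01) and Rpl30 (-0.29, adjusted p = 0.0465) lost. In monocyte-like cells Rpl36al (0.74, adjusted p = 0.00311), Rpl8 (0.38, adjusted p = 0.0278), Rps9 (0.37, adjusted p = 0.0404) and Rplp0 (0.34, adjusted p = 0.0265) gained, and Rpl12 (-0.70, adjusted p = 0.00372), Rplp1 (-0.66, adjusted p = 0.004), Rpl7l1 (-0.54, adjusted p = 0.0389), Rpl13a (-0.51, adjusted p = 0.0322) and Rpl10a (-0.51, adjusted p = 0.0066) lost. Within the P stalk, then, Rplp0 and Rplp1 differed in opposite directions there. In T/NK-like cells Rps27 (0.64, adjusted p = 0.00305), Rpsa (0.46, adjusted p = 0.017), Rps15a (0.44, adjusted p = 0.0115), Rpl38 (0.37, adjusted p = 0.0279) and Rps24 (0.35, adjusted p = 0.0215) gained, and Rps27l (-0.86, adjusted p = 0.00589), Rpl7l1 (-0.82, adjusted p = 0.0199), Rpl10 (-0.51, adjusted p = 0.016), Rps29 (-0.50, adjusted p = 0.00543) and Rps25 (-0.49, adjusted p = 0.0207) lost. Without the replicate block 7, 6 and 4 members passed in the 3 comparisons, and in cells of 2000 to 10000 UMIs 2, 3 and 1.

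**Figure D3:**
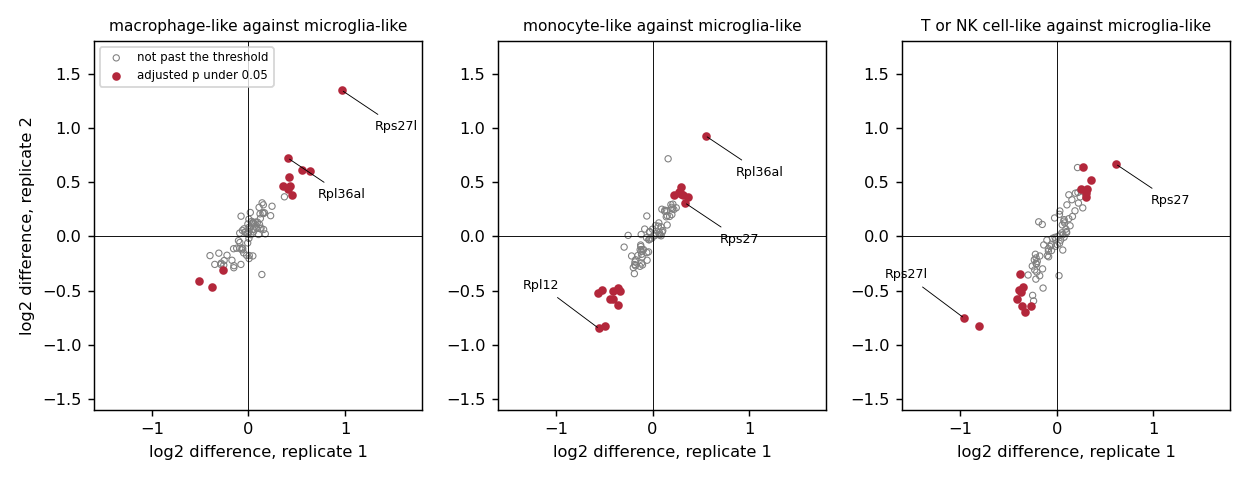
Log2 difference of each member tested, except the sparse Rpl3l and Rpl39l, relative to the summed members, in replicate 1 (x axis) and replicate 2 (y axis), for 3 comparisons with microglia-like cells, filled where the adjusted p is under 0.05. Rps27l lies at the upper right for macrophage-like cells and at the lower left for T/NK-like cells, and Rpl36al at the upper right for monocyte-like cells.

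The ratio of paralog to partner tags differed between classes for some pairs. Rps27l gave 9.56 and 7.65 UMIs per 100 Rps27 UMIs in microglia-like cells of replicates 1 and 2, 23.1 and 21.7 in macrophage-like and 28.9 and 25.1 in cycling-like cells. It gave 3.21 and 2.86 in T/NK-like and 8.47 and 10.1 in monocyte-like cells. Macrophage-like and cycling-like libraries were thus above, T/NK-like ones below and monocyte-like ones overlapping with microglia-like cells. Within microglia-like cells the ratio was 6.47 and 6.35 in cluster 0, 15.2 and 13.9 in cluster 1 and 5.69 and 4.94 in cluster 6, with cluster 1 above the others in both libraries. Rpl36al gave 61.5 and 58.3 UMIs per 100 Rpl36a UMIs in microglia-like, 82.8 and 109 in macrophage-like and 119 and 166 in monocyte-like cells. So monocyte-like cells held more Rpl36al than Rpl36a tags, and no library of the 3 class sums overlapped another class. This was not particular to monocyte-like cells. Macrophage-like cluster 5, described under other observations, had a ratio inside the monocyte-like range in both libraries. It made up a larger part of the macrophage-like cells in replicate 2 than in replicate 1, and its part in the class values was not tested. Rpl22l1 gave 48.8 and 38.0 UMIs per 100 Rpl22 UMIs in microglia-like cells, 37.1 and 30.7 in cluster 0 and 53.6 and 46.3 in cluster 6. Its ratio was higher in replicate 1 than in replicate 2 in 15 of 16 clusters, so it moved with the library. The Rps27l ratio was higher in replicate 1 in 13 of 16 clusters, so it too moved with the library. For Rpl36al this held in 7 of 16 clusters. Rpl3l had 1 and 2 UMIs in microglia-like, 41 and 7 in macrophage-like, 5 and 12 in monocyte-like and 6 and 28 in neutrophil-like cells, too few for a ratio to be read. The ratios are of tags from different 3' ends and describe the sums with no test of their own.

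**Figure D4:**
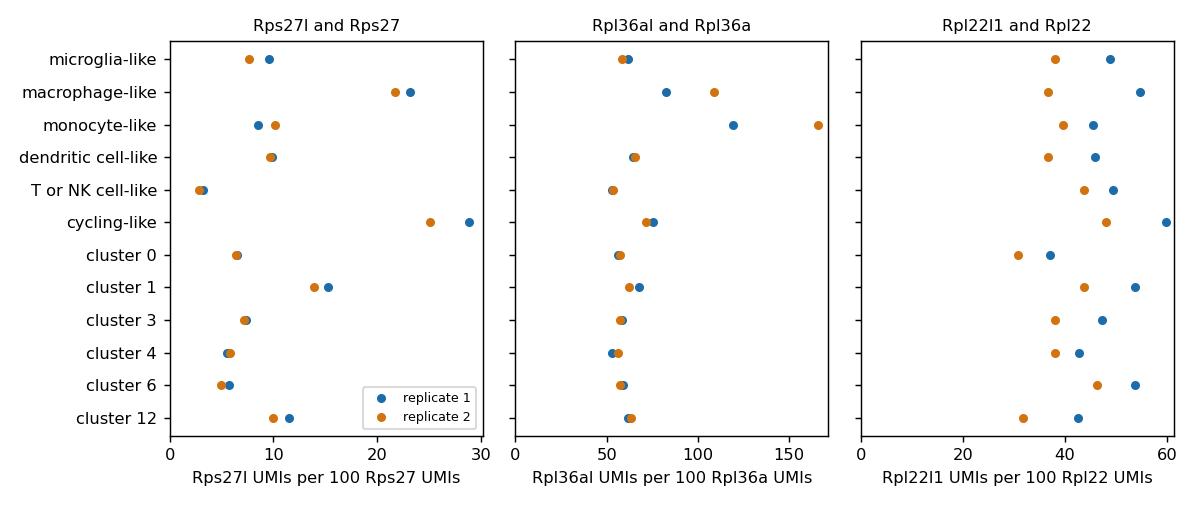
UMIs of a paralog per 100 UMIs of its partner (x axes), 1 point per library. The y axis holds the classes except the neutrophil-like one, the microglia-like clusters compared in the text and cluster 12. Rps27l is highest in cycling-like (28.9 and 25.1) and macrophage-like cells, Rpl36al in monocyte-like cells (119 and 166), and Rpl22l1 is split by library.

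Other genes of translation were read from 5 lists, counted on the TMM scale, with the list's median relative to the median of all genes in brackets. The share of all genes called in each comparison on that scale is given above with the ribosomal protein counts. A list count near that share is not a result about the list. Among 25 other TOP and translation genes 1 higher and 21 lower were called in cluster 0 [-0.47], 18 higher and 1 lower in cluster 1 [0.31], 12 higher and 0 lower in cluster 6 [0.29] and 21 higher and 1 lower in cluster 12 [0.95]. The relative median of the list had the sign of that of the ribosomal protein genes in these 4 clusters. With library sizes it was -0.47, 0.31, 0.29 and 0.93, again alike by construction. Eef1g, of the factor that reloads Eef1a1, was higher in cluster 1, at 0.82 (adjusted p = 5.72e-07), and in cluster 12, at 1.11 (adjusted p = 6.89e-08). The helicase gene Eif4a2 was the exception on its list, with 0.32 (adjusted p = 0.00754) in cluster 0, -0.59 (adjusted p = 1.47e-05) in cluster 1, 0.44 (adjusted p = 0.00174) in cluster 4 and -0.87 (adjusted p = 0.000225) in cluster 12. The list had 14 higher and 0 lower in dendritic cell-like cells [0.50], 6 higher and 0 lower in T/NK-like cells [0.48] and 2 higher and 11 lower in cluster 13 [-0.18]. It had 4 higher and 1 lower in cycling-like [0.14] and 0 higher and 0 lower in neutrophil-like cells [-0.07]. Counts were 8 higher and 1 lower in macrophage-like and 7 higher and 1 lower in monocyte-like against microglia-like cells, which became 4 higher and 4 lower and 1 higher and 6 lower with library sizes. They were 1 higher and 3 lower between monocyte-like and macrophage-like cells, 1 higher and 8 lower in cluster 4 and 0 higher and 0 lower in cluster 3.

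The mitochondrial ribosome is built from a separate set of nuclear genes, of which 77 were tested. In cycling-like cells 40 of them were higher than in microglia-like cells and 0 lower [0.55], beside 4 of 85 cytosolic genes higher, and with library sizes 31 were higher and 0 lower. In macrophage-like cells 61 of them were higher than in microglia-like cells and 0 lower [0.61], beside 12 of 85 cytosolic genes higher. With library sizes 25 were higher and 0 lower. Between monocyte-like and macrophage-like cells 38 were lower and 1 higher [-0.49]. Cluster 1 had 62 higher and 1 lower [0.55] and cluster 12 had 56 higher and 0 lower [0.96]. In cluster 6, beside 63 cytosolic genes higher, 2 mitochondrial ribosome genes were higher and 13 lower [-0.13]. Mrps25, a small subunit gene, was 0.98 (adjusted p = 1.49e-07) in cluster 1 and -1.01 (adjusted p = 4.22e-05) in cluster 6. In cluster 0 the counts were 0 higher and 12 lower [-0.14] but 24 higher and 1 lower with library sizes, so their direction there depends on the scale. The counts were 0 higher and 11 lower in cluster 4, 0 higher and 0 lower in cluster 3, 22 higher and 0 lower in dendritic cell-like, 6 higher and 0 lower in T/NK-like and 1 higher and 1 lower in neutrophil-like cells. They were 16 higher and 5 lower in monocyte-like cells against microglia-like cells and 14 higher and 11 lower in cluster 13, and 6 higher and 22 lower and 3 higher and 32 lower with library sizes. The difference between the cytosolic and the mitochondrial ribosome was not tested.

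Ribosome biogenesis genes (43 tested), which process ribosomal RNA and assemble subunits, had calls in both directions. Monocyte-like cells had 3 higher and 10 lower against microglia-like cells [-0.23], while 20.1% of all genes were lower. Against macrophage-like cells they had 0 higher and 12 lower [-0.48], while 12.3% of all genes were lower, with Nop56, a core protein of the methylation complexes, at -1.29 (adjusted p = 0.00144) in the first comparison. Cluster 13 had 2 higher and 14 lower [-0.34], while 14.1% of all genes were lower. Cycling-like cells had 7 higher and 0 lower [0.24], while 15.2% of all genes were higher and 10.1% lower. Neutrophil-like cells had 0 higher and 0 lower [-0.09]. Gnl3, a nucleolar GTPase gene, was 0.90 (adjusted p = 4.6e-05) in cluster 6, -0.68 (adjusted p = 0.000289) in cluster 1 and -1.94 (adjusted p = 1.71e-06) in cluster 12, so it was lower in 2 clusters with more ribosomal protein transcripts. Macrophage-like cells had 12 higher and 3 lower, while 25% of all genes were higher and 20.7% lower. Cluster 0 had 1 higher and 7 lower, while 12.2% of all genes were higher and 11.1% lower. With library sizes these counts became 4 higher and 8 lower and 14 higher and 1 lower. The counts were 15 higher and 6 lower in cluster 1, 7 higher and 5 lower in cluster 6, 8 higher and 5 lower in cluster 12, 1 higher and 2 lower in cluster 4, 0 higher and 0 lower in cluster 3, 7 higher and 0 lower in dendritic cell-like and 2 higher and 1 lower in T/NK-like cells.

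Genes of growth control by mTORC1 and MYC (31 tested) had calls in both directions. Ddit4, an inhibitor of mTORC1 that glucocorticoids induce, was 2.53 (adjusted p = 4.94e-08) in cluster 6, -1.30 (adjusted p = 0.000206) in cluster 1 and -1.35 (adjusted p = 0.00474) in cluster 4. Myc, the transcription factor that drives ribosome production, was -1.01 (adjusted p = 3.73e-07) in cluster 1, -2.18 (adjusted p = 4.97e-05) in cluster 12 and -1.99 (adjusted p = 1.62e-05) in macrophage-like cells. So Myc transcripts were lower in clusters 1 and 12, whose ribosomal protein transcripts were higher. Lamtor2, of the lysosomal anchor of mTORC1, was 0.92 (adjusted p = 1.27e-07) in cluster 1 and 1.18 (adjusted p = 6.1e-09) in cluster 12. The counts were 12 higher and 4 lower in macrophage-like, 12 higher and 5 lower in monocyte-like, 6 higher and 2 lower in dendritic cell-like, 1 higher and 0 lower in T/NK-like, 4 higher and 4 lower in cycling-like and 3 higher and 0 lower in neutrophil-like cells, and 4 higher and 5 lower between monocyte-like and macrophage-like cells. They were 3 higher and 4 lower in cluster 0. Cluster 1 had 9 higher and 8 lower, while 25% of all genes were higher and 21% lower. Clusters 3, 4 and 6 had 1 higher and 0 lower, 2 higher and 3 lower and 6 higher and 2 lower. Clusters 12 and 13 had 6 higher and 5 lower and 11 higher and 5 lower. With library sizes the counts were 5 higher and 6 lower in macrophage-like cells and 10 higher and 1 lower in cluster 0. Cluster 1 then had 5 higher and 14 lower and cluster 12 had 3 higher and 13 lower.

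Genes of the integrated stress response, which halts initiation under stress, and of ribosome quality control numbered 23 tested, or 24 in the fit with clusters 12 and 13. Cluster 12 had 1 higher and 9 lower [-0.94], with Atf4, the effector transcription factor, at -1.68 (adjusted p = 3.08e-08) and Ppp1r15a, the phosphatase subunit that restarts initiation, at -4.75 (adjusted p = 3.38e-14). Cluster 1 had 5 higher and 8 lower with Atf4 at -0.77 (adjusted p = 1.39e-05), and cluster 4 had 3 higher and 2 lower with Atf4 at 0.50 (adjusted p = 0.00356). Cluster 6 had 4 higher and 0 lower, with Gadd45a at 1.87 (adjusted p = 6.08e-05), and cluster 13 had 10 higher and 1 lower [0.75]. Asns, which makes asparagine and is induced by Atf4, was 2.69 (adjusted p = 5.27e-05) in macrophage-like and 3.12 (adjusted p = 0.000163) in monocyte-like cells, with 9 higher and 3 lower and 10 higher and 3 lower on the list, and 5 higher and 5 lower in macrophage-like cells with library sizes. The counts were 0 higher and 3 lower in cluster 0 (with library sizes 8 higher and 3 lower), 3 higher and 0 lower in cluster 3, 2 higher and 1 lower in dendritic cell-like, 0 higher and 0 lower in T/NK-like, 0 higher and 4 lower in cycling-like and 5 higher and 0 lower in neutrophil-like cells, and 4 higher and 1 lower between monocyte-like and macrophage-like cells.

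Across the 16 clusters with at least 50 cells in each library, most members followed the group. Pearson's r between a gene's log2 CPM and that of the summed other members was over 0.9 in both libraries for 35 genes and over 0.8 for 62, and the median of the lower of both values was 0.88. Rps27l was the least like the group among well measured genes, with r of -0.02 and 0.05. Other genes with a low r were Rpl7l1 (0.28 and 0.36), Rps19bp1 (0.41 and 0.32), Rpl36al (0.48 and 0.59) and the core gene Rps9 (0.57 and 0.51). Among 2425 genes outside the members, those most like them included Rack1 (0.94 and 0.96), a scaffold bound to the small subunit, Eif3e (0.92 and 0.92), of initiation factor 3, Eef1a1 (0.90 and 0.91), Naca (0.89 and 0.95), a chaperone at the exit tunnel, Nsa2 (0.90 and 0.89), Gm11808 (0.87 and 0.94) and the respiratory chain gene Uqcrh (0.87 and 0.87). These correlations describe 16 points per library, whose clusters share library, depth and the CPM total, and carry no p.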

How the data were processed

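The deposited files hold whole-number UMI counts per gene and cell barcode, one unfiltered matrix per library. Per the submitters' processing notes, STAR 2.5.1b, Cell Ranger 4.0.0 and Seurat 4 were used, with the builds GRCh38, GRCm38 and mm10 named. What GRCh38 was used for is not stated in those notes. The labels put both libraries in 1 group.

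Barcodes with at least 1000 UMIs, 500 genes and at most 10% mitochondrial UMIs were kept (15050 and 7910). Doublets were called with Scrublet's method (1426 removed in replicate 1). In replicate 2 the caller marked none, so the 501 highest scores were removed instead. Cells were clustered with scanpy 1.11.5 and leidenalg 0.10.2 (2000 variable genes, 30 components, 15 neighbours, Leiden resolution 0.8), leaving out all cytosolic and mitochondrial ribosomal protein genes, mitochondrial genes and the gene lists. Clusters were named from marker lists, and members and lists were chosen with earlier results of these data known. UMIs were summed per library and class (at least 50 cells in each library) or microglia-like cluster (at least 100), and genes used for clustering were not tested. edgeR 4.0.16 in R 4.3.3 fitted a quasi-likelihood model with TMM, filterByExpr and library as a block, with Benjamini-Hochberg adjustment over all genes tested and a threshold of 0.05. It was tested on simulated data. Both sides of each contrast come from the same libraries, which is where the pairing comes from. Across 21 class pairs the deviations of same-numbered sums correlated at -0.046 to 0.466, with a median of 0.113 over 10949 genes. DESeq2 1.42.0, scaling, filters, resolution, depth, doublets, free RNA (the profile of barcodes under 100 UMIs) and each library were varied.

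Members named per comparison were the 4 highest and 4 lowest that passed, with the same sign in both libraries and at least 50 CPM on one side, and the 2 of at least 200 CPM that differed least. On the scale relative to all members the 5 highest and 5 lowest were taken. Paralog pairs, P stalk genes, Rpsa and Rps6 could be named in any comparison, and each list gave up to 3 genes in each direction. Some genes that these rules pick are not reported here. Copies were found with blastn 2.17.0. Intervals for counting error are narrow at these depths, and the spread between the 2 libraries limits precision.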

Additional observations from a re-analysis of the deposited data

Results flagged for a closer look

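Gm10076, a gene outside the ribosomal protein symbols whose transcript is 99.5% identical to Rpl41, held 125198 UMIs in the cells, which is most of the UMIs of the 32 copies. It drew attention because its signal lies outside the genes measured here. Its level was 926 and 791 CPM in microglia-like cells of replicates 1 and 2 and 1084 and 939 CPM in macrophage-like cells. By edgeR's quasi-likelihood test it was lower in cluster 0 (-0.66, adjusted p = 6.05e-05) and higher in cluster 1 (0.77, adjusted p = 6.1e-07) and cluster 12 (1.17, adjusted p = 1.15e-09), beside -0.63, 0.78 and 1.16 for Rpl41. Whether its UMIs come from Rpl41 transcripts was not tested.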

How the results depend on the processing

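Of 544 values of named members under alternatives, 418 kept direction and side of the threshold, 126 kept direction only and 0 reversed. Of those 126, 61 came from cells of 2000 to 10000 UMIs and 29 from fits without the replicate block. Dendritic cell-like, T/NK-like, neutrophil-like and cycling-like comparisons, clusters 12 and 13 and library sizes for clusters were added after the data were seen. The cause of a changed count was not tested. For most alternatives the share of all genes called is not given, so those counts cannot be set against a general change in calls. Counts below are members higher, then lower, and medians are log2.

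With library sizes only, macrophage-like against microglia-like cells had 3 and 8 (median -0.125), monocyte-like 2 and 10 (-0.0701), dendritic cell-like 20 higher (0.397), and monocyte-like against macrophage-like a median of 0.0744. Cluster 0 had 1 and 27 (-0.181), cluster 1 20 and 2 (0.0873), cluster 4 10 lower (-0.146), cluster 6 17 and 3 (0.163), cluster 12 a median of 0.505 and cluster 13 80 lower (-0.761). In cells of 2000 to 10000 UMIs, macrophage-like cells had 3 and 1 (0.126), monocyte-like 2 higher, monocyte-like against macrophage-like 0 and 1 (0.148), dendritic cell-like 5 and T/NK-like 1 higher. There cluster 0 had 33 lower (-0.386), cluster 1 24 higher, cluster 4 0 lower and cluster 6 13 higher (0.288). On the scale relative to all members 2, 3, 0 and 1 were called for macrophage-like, monocyte-like, monocyte-like against macrophage-like and T/NK-like cells. Without the replicate block those relative counts were 7, 6, 7 and 4, and the others were 8 higher for monocyte-like, 3 lower for monocyte-like against macrophage-like, 36 for dendritic cell-like, 25 for T/NK-like, 3 lower for cluster 4 and 26 and 0 for cluster 6. The block moved no other count of calls fitted without it by over 1.5 times.

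With DESeq2, 1 was lower in macrophage-like, 25 higher in monocyte-like, 10 higher in monocyte-like against macrophage-like (0.0876), 65 in T/NK-like cells and 60 lower in cluster 4, and cluster 6 had a median of 0.322. With no filter on low counts, macrophage-like cells had 1 lower, monocyte-like 3 and 1, dendritic cell-like 34 and 1, T/NK-like 23, cluster 6 2 lower (0.272), and 8 each on the relative scale for monocyte-like and T/NK-like cells. Under the stricter cell filter, macrophage-like cells had 7 higher (0.132), monocyte-like 3, monocyte-like against macrophage-like 0 and 0 (0.0705) and T/NK-like 0. At Leiden 0.4, macrophage-like cells had 1 lower and T/NK-like 26 higher, and at Leiden 1.2 monocyte-like had 8, T/NK-like 25 and monocyte-like against macrophage-like a median of 0.0473. With doublets kept, macrophage-like cells had 1 lower, monocyte-like 26 and 3, and monocyte-like against macrophage-like 9 higher (0.129). With free RNA subtracted, dendritic cell-like cells had 41 higher and a share of 24.2%, and monocyte-like against macrophage-like a median of 0.0635. Scaling without ribosomal protein and mitochondrial genes gave cluster 6 a median of 0.299, and without 1 library it was 0.307 to 0.309.

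Neutrophil-like against microglia-like cells had a median of -0.219 with library sizes only, -0.206 with no filter on low counts and -0.0528 under the stricter filter, 2 and 23 (-0.466) at Leiden 1.2, and 0 higher in cells of 2000 to 10000 UMIs. Cycling-like cells had 5 lower with DESeq2, 1 lower (-0.0114) at Leiden 0.4, 0 lower (-0.00927) under the stricter filter and 1 and 0 in cells of 2000 to 10000 UMIs. Their median, near 0, also turned to -0.0576 with library sizes only, -0.0506 with no filter on low counts, -6.75e-05 without the replicate block and -0.0319 with free RNA subtracted, and without 1 library it was -0.062 to 0.0687.

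Rps27l per 100 Rps27 UMIs was 19.4 in macrophage-like cells at Leiden 0.4, 18.8 in cells of 2000 to 10000 UMIs and 23.7 with free RNA subtracted. It was 7.01 in microglia-like and 8.08 in monocyte-like cells at Leiden 1.2, and 14.1 in monocyte-like cells under the stricter filter. Classes were absent, and so not run, for monocyte-like and dendritic cell-like cells at Leiden 0.4, for dendritic cell-like cells at Leiden 1.2, under the stricter filter and with doublets kept, and for cluster 13 at fixed depth. With 1 library left, comparisons gave values and no test.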

Other observations

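Clusters not compared on their own held other balances of ribosomal protein genes, given as values chosen after they were seen and with no test. The cells of clusters 5, 14 and 17 are part of the macrophage-like and cycling-like sums compared above. Cluster 14, a macrophage-like cluster with Mrc1, Marco and Cd36 in the lead (241 and 18 cells), had 55.2 and 53.2 Rps27l UMIs per 100 Rps27 UMIs, at 1149 and 1056 CPM of Rps27l. Cluster 17, a cycling-like cluster led by Birc5, Ube2c and Pclaf (194 and 9 cells), had 41.3 and 36.2. Macrophage-like cluster 5, led by Arg1, Pf4 and Hmox1 (1144 and 371 cells), had 132 and 155 Rpl36al UMIs per 100 Rpl36a UMIs. Clusters 14 and 17 rest mostly on replicate 1.

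Cluster 15, unnamed and led by the collagen genes Col3a1, Col1a1 and Col1a2 with Apod (152 and 94 cells), had 19.9% and 19.8% of UMIs from ribosomal protein genes and a small to large subunit ratio of 0.77 and 0.76. Cluster 19, unnamed and led by Ear2, Ace and Itgal (85 and 78 cells), had 19.1% and 17.8% and a ratio of 0.88 and 0.91. The ratios of these clusters lay on opposite sides of the microglia-like value in both libraries. Cluster 15 also had 39.7 and 35.7 Rpl36al UMIs per 100 Rpl36a UMIs, below the microglia-like libraries.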
